A study of Mus musculus with 12 samples.

Results

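Before a leukocyte leaves the blood it is slowed, held and then passed between the cells of the vessel wall, and each of these steps has its own adhesion molecules. E-selectin and P-selectin on activated endothelium bind sugar-bearing ligands such as PSGL-1, the product of Selplg, and make the leukocyte roll. The immunoglobulin-family molecules ICAM-1, ICAM-2, VCAM-1 and MAdCAM-1 are then bound by leukocyte integrins, which brings the cell to a halt, and PECAM-1 and VE-cadherin, the product of Cdh5, lie at the junctions through which it passes. In resting vessels E-selectin is made in very small amounts, whereas P-selectin is held ready in storage granules of endothelium and platelets, and the MAdCAM-1 of the gut marks the venules through which lymphocytes enter its lymphoid tissue. The transcripts of these 9 genes (Sele, Selp, Selplg, Icam1, Icam2, Vcam1, Pecam1, Madcam1 and Cdh5) were followed in the mouse cecum after its surface had been burned, and the probes were found by these gene names, which gave 14 probes of 56605 on the array and 9 genes of 37074.

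The data comprised 12 arrays of cecum RNA, 3 per group that the methods call biological triplicates, from sham-operated animals and from animals sampled 3, 12 or 72 h from cauterization of the cecum, an operation after which the bowel sticks to neighbouring surfaces. All mice were labelled male, and the methods list C57BL/6 (B6) and a Wt1 reporter strain, but the strain and age of the mice behind these arrays are not given in the sources used here. The sham mice were taken at 0 h, so that the burn and the time elapsed since the operation cannot be told apart. Each level below is the log2 intensity of a probe minus the 75th percentile of all probes on the same array, a scale on which 0 is that percentile and a step of 1 is 2-fold, and levels of different probes are not comparable.

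Well above background were 60.2% to 65.2% of the probes of an array, arrays of 1 group correlated at 0.985 to 0.992 across probes, and no spot was saturated. Against the male label, Xist exceeded background on every array, with levels from -0.77 to 0.00 and no change past the test, whereas Ddx3y and Eif2s3y did so on 0 arrays, Uty on 1 sham array and the brightest probe of Kdm5d on all 12. The mice are therefore called by their group only. All 17 endothelial markers, all 6 epithelial markers and all 5 smooth muscle markers were well above background on every array. The arrays lay on 2 slides, with sham and 3 h on slide 1, 72 h on slide 2 and the 12 h arrays on both (2 and 1), and only the single 12 h array on slide 2 separates the slide from the 72 h group. Changes were tested with limma on the 4 group means with Benjamini-Hochberg adjustment over all probes, and a gene was called when its brightest probe changed by more than 2-fold with an adjusted p under 0.05. The 72 h group had a median change over all genes of -0.14 against sham on this scale, which was 0.08 at 3 h and -0.01 at 12 h.

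The stretches of DNA in front of 4 of the 9 genes (Sele, Selp, Icam1 and Madcam1) were held by the RefSeq promoter table of GRCm38.p6, and they are shown because the first 3 belong to the genes that rose at 3 h, while the last belongs to a gene that did not pass the test at any time. The 250 bases before each gene start are written 5′ to 3′ on the strand of the gene, with matches to GGNNNTTCC on either strand in capitals, a pattern like that bound by NF-κB. They lie at chr1:164047984-164048233, chr1:164115014-164115263, chr9:21015690-21015939 and chr10:79664309-79664558, all on the + strand.
Sele: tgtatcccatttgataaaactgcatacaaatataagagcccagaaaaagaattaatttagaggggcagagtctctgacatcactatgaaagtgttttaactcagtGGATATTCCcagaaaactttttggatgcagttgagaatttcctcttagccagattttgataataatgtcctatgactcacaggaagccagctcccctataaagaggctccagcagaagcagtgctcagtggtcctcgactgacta
Selp: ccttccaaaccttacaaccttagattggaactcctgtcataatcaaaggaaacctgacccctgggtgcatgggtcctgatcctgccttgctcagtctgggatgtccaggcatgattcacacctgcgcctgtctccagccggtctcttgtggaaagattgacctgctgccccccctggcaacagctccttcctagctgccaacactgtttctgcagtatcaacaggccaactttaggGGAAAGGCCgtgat
Icam1: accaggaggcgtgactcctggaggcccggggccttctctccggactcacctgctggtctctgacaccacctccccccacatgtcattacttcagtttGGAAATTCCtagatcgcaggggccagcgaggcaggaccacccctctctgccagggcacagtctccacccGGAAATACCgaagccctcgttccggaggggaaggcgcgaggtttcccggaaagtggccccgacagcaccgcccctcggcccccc
Madcam1: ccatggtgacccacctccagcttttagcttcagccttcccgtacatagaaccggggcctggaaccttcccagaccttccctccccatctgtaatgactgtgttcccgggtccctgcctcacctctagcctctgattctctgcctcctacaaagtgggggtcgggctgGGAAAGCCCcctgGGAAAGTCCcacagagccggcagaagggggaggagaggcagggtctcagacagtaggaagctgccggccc

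Sele held 1 match (GGATATTCC, 145 to 137 bases before the start), Selp 1 (GGAAAGGCC, 14 to 6), Icam1 2 (GGAAATTCC, 153 to 145, and GGAAATACC, 84 to 76) and Madcam1 2 (GGAAAGCCC, 83 to 75, and GGAAAGTCC, 70 to 62). The pattern was present in 15.6% of the 27025 mouse promoters of this length, so that each of these 4 windows holds a pattern that most promoters lack, Madcam1 included. TGANTCA, a pattern like that of AP-1, occurred once in Sele (TGACTCA, 73 to 67) and once in Selp (TGATTCA, 139 to 133), against 6.87% of all promoters, and CAGGAAG, a pattern like that of ETS factors, occurred in Sele alone, directly next to TGACTCA and without overlap (66 to 60), against 10.5%. A match is a description of the letters and not a site in use.

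Among the probes themselves, those farthest toward the start of their gene are shown for the 3 genes whose probes are compared below, together with the Madcam1 probe, whose 60 bases span 312 bases of the genome and so cross a gap. The coordinates are those of mm9, as given for the array, and each sequence has 1 or 2 reading frames without a stop codon. Selp lies at chr1:166071558-166071617 (+), Icam1 at chr9:20832290-20832349 (+), Vcam1 at chr3:115828953-115829012 (-) and Madcam1 at chr10:79127883-79128194 (+).
Selp A_52_P57843: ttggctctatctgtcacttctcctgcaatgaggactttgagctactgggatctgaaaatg
Icam1 A_52_P613241: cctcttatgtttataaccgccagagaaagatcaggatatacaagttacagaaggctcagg
Vcam1 A_52_P520495: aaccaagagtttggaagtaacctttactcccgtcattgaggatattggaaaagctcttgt
Madcam1 A_51_P517745: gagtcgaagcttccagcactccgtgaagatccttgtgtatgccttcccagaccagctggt

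Against sham, 3 of the 9 genes were called higher at 3 h (Sele, Selp and Icam1), where 3.26% of all genes were called higher. At 12 h the count was 4 (the same 3 and Selplg), against 4.1% of all genes, and at 72 h it was 7 (Icam2, Vcam1 and Cdh5 in addition), against 4.55%. Not one of the 9 was called lower at any time, where 4.11%, 4.96% and 4.3% of all genes were called lower. Of the 14 probes, 6, 7 and 10 were called at the 3 times, against 7.33%, 8.94% and 8.26% of all probes. The median change of the 9 genes was 0.64, 0.55 and 1.31 at 3, 12 and 72 h. By limma's F-test over the 3 times, 7 of the 9 genes differed among the groups, against 39.3% of all genes, the exceptions being Pecam1 (adjusted p = 0.115) and Madcam1 (adjusted p = 0.630). In bulk tissue, fewer cells of a type and less RNA per cell cannot be told apart, and this holds for every change below.

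**Figure D1:**
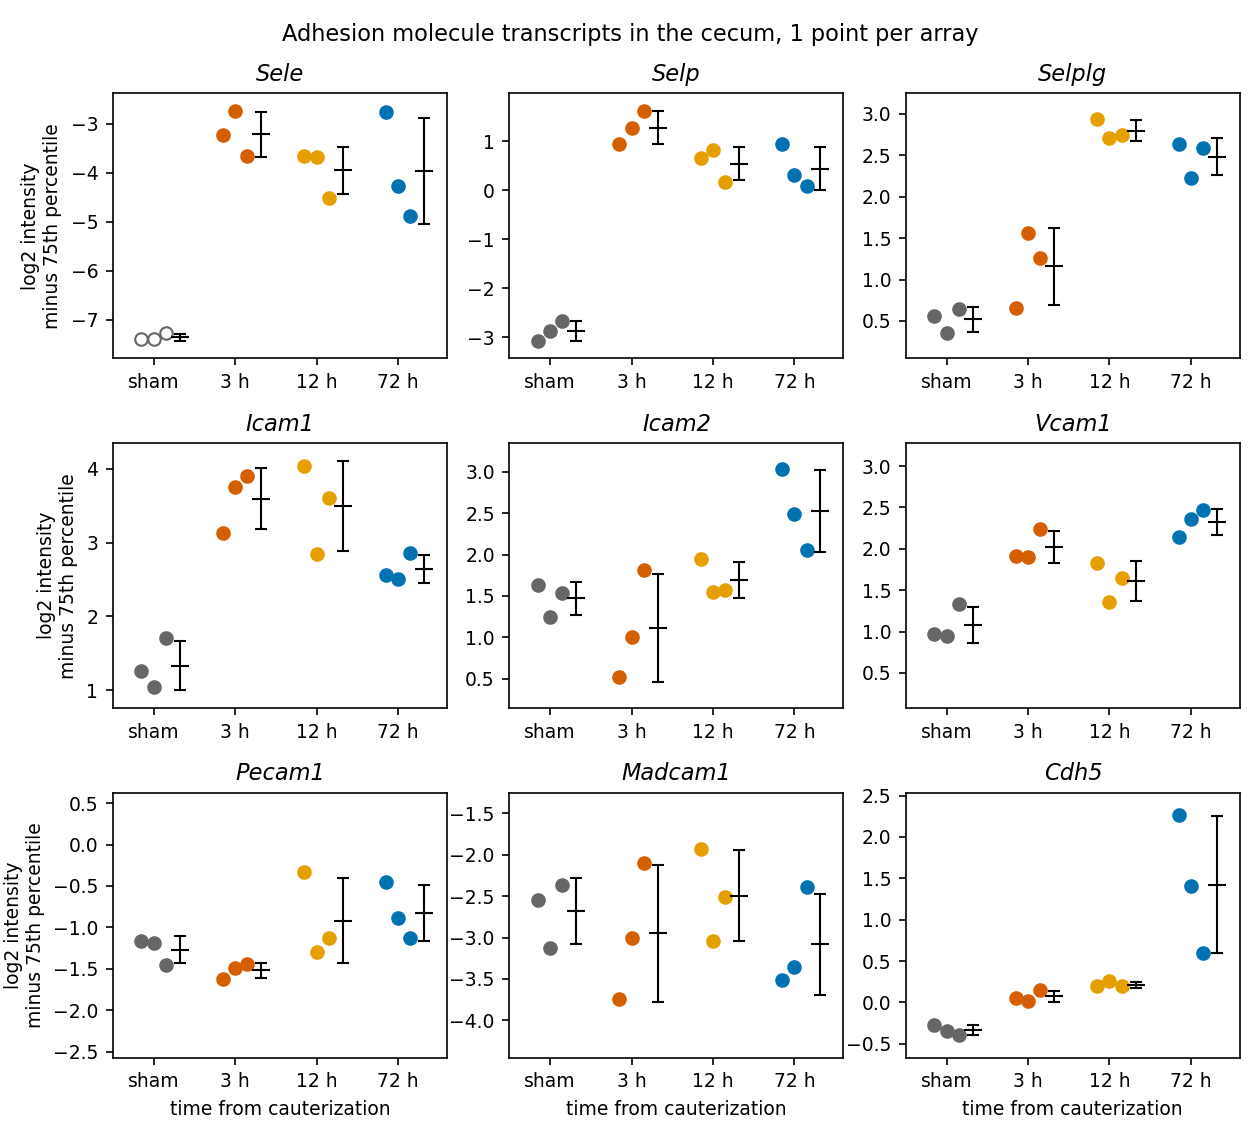
Levels of the 9 adhesion molecule transcripts (y axis, log2 intensity relative to the 75th percentile of the array) in sham cecum and at 3, 12 and 72 h from cauterization (x axis). Each point is 1 array at its gene's brightest probe, open where not well above background, and bars give the mean and SD of 3 arrays. Sele and Selp stand far above sham at all 3 times, Selplg steps up at 12 h, Cdh5 and Icam2 rise at 72 h, and the 4 groups of Madcam1 overlap.

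Both endothelial selectins rose at all 3 times, and Selp had the largest fitted rise among the 8 genes measured above background in sham. Sele, the endothelial E-selectin, was not well above background on any sham array (-7.39, -7.39 and -7.27) and was well above it on all others. Its levels were -3.24, -2.75 and -3.66 at 3 h, -3.67, -3.68 and -4.51 by 12 h, and -2.76, -4.26 and -4.87 by 72 h. Every treated array lay above every sham array, and the 72 h arrays were the most scattered (SD 1.09). Sham gives only an upper limit. Sele was therefore at least 3.50-fold higher at 3 h, at least 2.10-fold at 12 h and at least 2.08-fold at 72 h. The limma adjusted p-values of 3.92e-04, 7.95e-04 and 1.07e-03 belong to the fitted log2 changes of 4.14, 3.40 and 3.39. Those changes use the sham values that were not well above background, and the bounds were not tested. Even at its highest the transcript was dim, with an intensity of at most 38.5 on any array. Under normexp background correction, which here added an offset of 50 to every spot, its changes were 0.56, 0.27 and 0.19 and were not called.

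Selp, which encodes P-selectin, was measured by 3 probes. The brightest read -3.07, -2.88 and -2.68 in sham, 0.94, 1.28 and 1.61 at 3 h, 0.65, 0.81 and 0.17 by 12 h, and 0.94, 0.31 and 0.08 by 72 h. No treated array came near the sham range, and the 12 h arrays all lay below the 3 h arrays. The rise was 4.15 at 3 h (SE 0.26, adjusted p = 1.60e-05), 3.42 at 12 h (adjusted p = 2.72e-05) and 3.32 at 72 h (adjusted p = 4.38e-05). Under normexp background correction the same changes were smaller, at 2.73, 2.12 and 2.03, and were called at all 3 times. The other probes of Selp gave 4.59 and 4.52 at 3 h, 3.70 and 3.66 by 12 h, and 3.51 and 3.47 by 72 h, and all 3 positions along the transcript were called at all 3 times, the dimmest (A_52_P57843, shown above) being well above background on 1 of the sham arrays.

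Whether the P-selectin transcript was called lower at 72 h than at 3 h depended on the probe and on the arrays kept. Between 3 and 72 h the difference was -1.08 (adjusted p = 0.0341) and -1.05 (adjusted p = 0.0314) at the dimmer probes, which were called lower as 5.51% of all genes were, and -0.83 (SE 0.26, adjusted p = 0.0332) at the brightest probe, which was less than 2-fold and so was not called. With the slide as a block, the brightest probe differed by -0.27 between these times (adjusted p = 0.741). The dimmer probes were not examined with the slide as a block. Neither the step from 3 to 12 h (-0.73, adjusted p = 0.117) nor that from 12 to 72 h (-0.10, 95% interval -0.68 to 0.48, adjusted p = 0.810) passed the test. Array 1 of the 72 h group was the highest of its group for both selectins, and without it the fall from 3 to 72 h was -1.35 for Sele (adjusted p = 0.0185) and -1.08 for Selp (adjusted p = 0.0134), both past the threshold. With that array the difference of Sele was -0.75 (adjusted p = 0.232). The fall of Selp at its brightest probe also passed without the lowest 3 h array (-1.0, adjusted p = 0.0274). Across the 12 arrays the 2 selectins had a Pearson correlation of 0.972, a description that the gap between sham and the rest contributes to. Among 15103 genes above background on all arrays, those most like Sele were Adamts4 (0.973), Selp and Tnfaip6 (0.971), and those most like Selp were Tnfaip6 (0.988), Cxcl1 (0.987) and Adamts4 (0.986), over the same 12 arrays.

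Selplg encodes PSGL-1, the selectin ligand that leukocytes carry, and its timing was different. Sham arrays read 0.56, 0.35 and 0.65 and the 3 h arrays 0.65, 1.56 and 1.26. By 12 h the levels were 2.94, 2.71 and 2.74, and at 72 h they were 2.64, 2.23 and 2.59. The lowest 3 h array was level with the highest sham array, while all 12 and 72 h arrays stood clear of both. At 3 h the change of 0.64 did not pass the test (SE 0.22, 95% interval 0.16 to 1.12, adjusted p = 0.0652), and it was 2.28 at 12 h (adjusted p = 9.56e-05) and 1.97 at 72 h (adjusted p = 2.98e-04). Selplg was the 1 gene of the 9 called between 3 and 12 h, with a rise of 1.64 (adjusted p = 0.00258), where 1.89% of all genes were called higher. Among the genes most like it over the 12 arrays were Basp1 (0.991) and Snx18 (0.986).

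The cells that carry PSGL-1 had markers that were called at differing times. Of 6 pan-leukocyte markers, 0 were called at 3 h, 4 at 12 h (Cd53, Lcp1, Ptprc and Coro1a) and 2 at 72 h. The summed linear level of the 6 was 39.9 to 57.9 in sham, 23.3 to 61.9 at 3 h, 89.4 to 119.8 at 12 h and 76.0 to 117.3 at 72 h, in units of the 75th percentile of the array. Of 10 neutrophil markers, 7, 9 and 6 were higher at the 3 times, with sums of 81.0 to 92.1 in sham, 359.8 to 598.8, 822.2 to 861.2 and 348.6 to 635.7. Of 8 macrophage markers, 0, 2 and 8 were higher at the 3 times, with sums of 36.8 to 39.9 in sham and 110.9 to 128.4 at 72 h. The part of these cells in the change of Selplg was not tested.

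ICAM-1 is the main endothelial ligand of the β2 integrins and is also made by epithelium and leukocytes. Icam1 read 1.26, 1.04 and 1.70 in sham, 3.13, 3.75 and 3.91 at 3 h, 4.04, 2.84 and 3.61 by 12 h, and 2.56, 2.51 and 2.86 by 72 h. All treated arrays were above all sham arrays, and all 72 h arrays were below all 3 h arrays. Its rise was 2.26 at 3 h (SE 0.31, adjusted p = 0.00108), 2.17 at 12 h (adjusted p = 0.00101) and 1.31 at 72 h (adjusted p = 0.0154). The other probe gave 2.44, 2.48 and 1.5, called at all 3 times. From 3 to 72 h the level fell by 0.95 (adjusted p = 0.0389), just under 2-fold, and the fall from 12 to 72 h was -0.85 (adjusted p = 0.0894) at the brightest probe and -0.99 (adjusted p = 0.0467) at the other. Without the lowest 3 h array the former was called (-1.19, adjusted p = 0.0259), as was the latter without the lowest 12 h array (-1.18, adjusted p = 0.0277). The 72 h call was lost without sham array 2 (1.16, adjusted p = 0.0608), without 72 h array 3 (1.20, adjusted p = 0.0506) and with the slide as a block (1.14, adjusted p = 0.307). Most like Icam1 over the 12 arrays were Kcne4 (0.986), Nfkb2 (0.982) and Kcnj8 (0.974).

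Icam2, whose product is held on resting endothelium, platelets and lymphocytes, behaved otherwise. Its sham levels were 1.63, 1.24 and 1.53, its 3 h levels 0.52, 1.0 and 1.82, its 12 h levels 1.94, 1.55 and 1.58, and its 72 h levels 3.03, 2.49 and 2.05. The 72 h arrays were the highest, with no overlap with any other group, while the 3 h arrays lay on both sides of sham. The change was -0.36 at 3 h (95% interval -1.08 to 0.37), 0.22 at 12 h (-0.51 to 0.95) and 1.06 at 72 h (0.33 to 1.78, adjusted p = 0.0461). This 72 h call stood at the edge of both thresholds and was lost in 16 of 25 alternatives, among them the slide block (1.22, adjusted p = 0.301) and leaving out 72 h array 1 (0.80, adjusted p = 0.152), 72 h array 2 (1.07, adjusted p = 0.0969), any sham or 12 h array, or 3 h array 2 (adjusted p = 0.0562 to 0.136). Over all 25 the change ran from 0.46 to 1.29, with adjusted p-values of 0.00945 to 0.301. The difference between 72 and 3 h was 1.41 (SE 0.33, adjusted p = 0.00933). A further Icam2 probe, drawn from a single Ensembl transcript, was above background on 0 of 12 arrays and gives no comparison. Most like Icam2 were Bin1 (0.964), St8sia4 (0.962) and 3300005D01Rik (0.960).

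For Vcam1, which encodes the ligand of the α4 integrins, the rises were smaller and both probes are needed. The brightest probe read 0.97, 0.94 and 1.33 in sham, 1.92, 1.91 and 2.24 at 3 h, 1.83, 1.36 and 1.65 by 12 h, and 2.15, 2.36 and 2.46 by 72 h. Its changes were 0.94 (adjusted p = 0.00413), 0.53 (adjusted p = 0.0486) and 1.24 (SE 0.17, adjusted p = 9.55e-04). All treated arrays exceeded all sham arrays, and only the 72 h change was past 2-fold. The probe nearer the start of the gene, shown above, read -3.03, -3.32 and -2.68 in sham, -2.13, -2.06 and -2.12 at 3 h, -2.23, -2.37 and -2.18 by 12 h, and -2.07, -2.07 and -2.28 by 72 h. There the 3 changes were 0.91, 0.75 and 0.87 (SE 0.15, adjusted p = 0.00292, 0.00608 and 0.00341), none past 2-fold. Between 12 and 72 h the brightest probe gave a further 0.71 (95% interval 0.33 to 1.08, adjusted p = 0.0169) and the other 0.12 (95% interval -0.22 to 0.46, adjusted p = 0.608). The intervals overlap, and whether the probes differ was not tested. Without sham array 3 the 3 h change was 1.06 and was called (adjusted p = 0.00429), and with the slide as a block the 72 h change was 1.19 and was not (adjusted p = 0.0832). Most like Vcam1 was Cxcl16 (0.963), followed by Srek1 (0.953) and 1700110I01Rik (0.953).

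**Figure D2:**
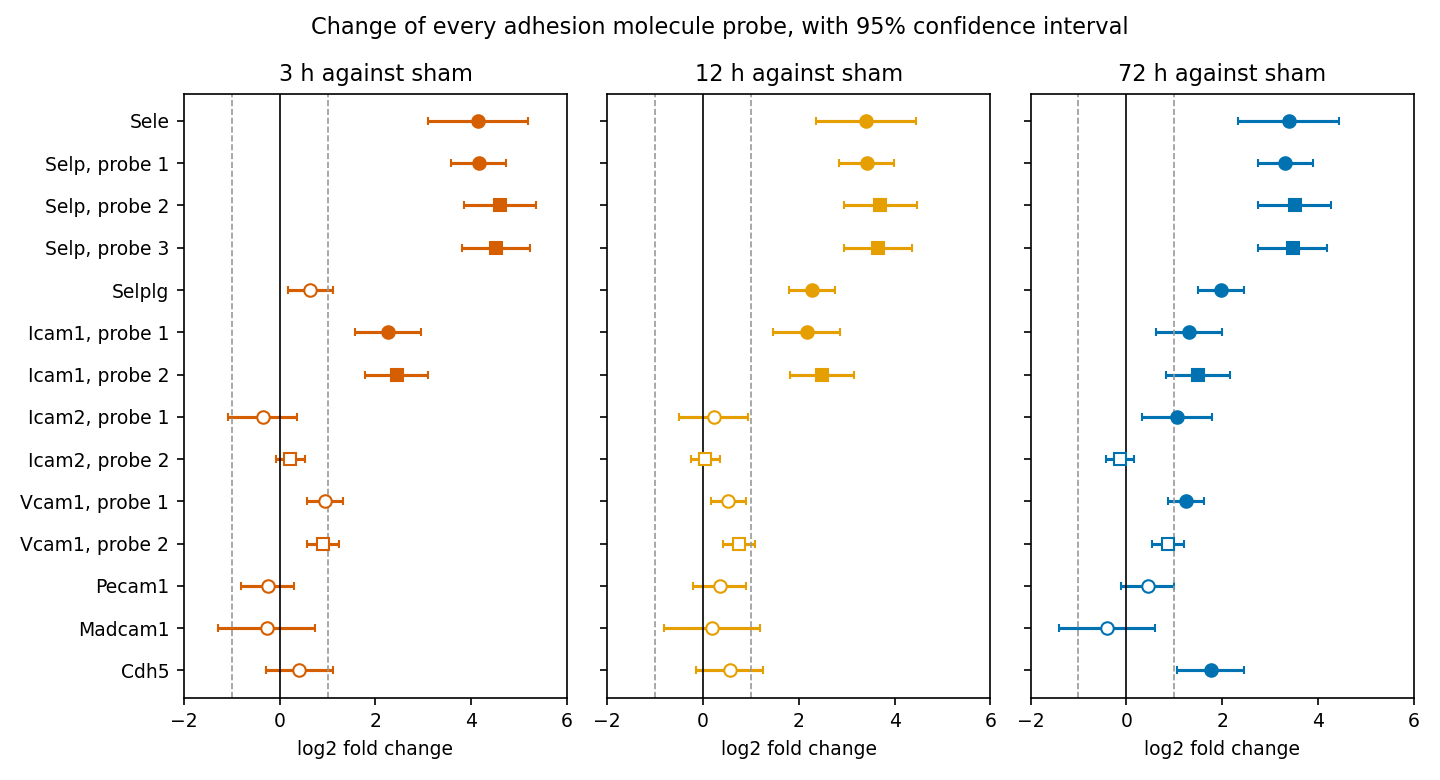
Change of each of the 14 probes against sham at 3, 12 and 72 h (x axis, log2 fold change with its 95% confidence interval from limma), circles for the brightest probe of a gene and squares for others. Filled points were called and dashed lines mark 2-fold. The sham level of Sele was not well above background, so its plotted fold is not a bound, and the intervals of Pecam1 and Madcam1 include 0 at all 3 times.

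MAdCAM-1 is the ligand of the gut-homing integrin α4β7. Madcam1 read -2.55, -3.12 and -2.37 in sham, -3.74, -3.01 and -2.09 at 3 h, -1.93, -3.04 and -2.50 by 12 h, and -3.51, -3.36 and -2.38 by 72 h. All 4 groups overlapped, and the spread within groups was wide (SD 0.39 to 0.83). The changes were -0.27 (95% interval -1.28 to 0.74), 0.19 (-0.82 to 1.20) and -0.40 (-1.42 to 0.61), and each interval reaches past 2-fold in 1 direction. Over the 12 arrays the gene most like Madcam1 was Tespa1 (0.958), followed by Sapcd1 (0.933) and Btla (0.927), a receptor of lymphocytes.

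The 9 lymphocyte markers, Cd79a, Ms4a1 and Cd3e among them, were all above background on all arrays, and their summed level ran from 20.1 to 32.7 in sham, 6.82 to 30.1 at 3 h, 20.1 to 41.5 at 12 h and 9.73 to 20.2 at 72 h. Not one of them was called at 3, 12 or 72 h. On the log2 scale the sum was lowest on the 3 h array with the lowest Madcam1 (2.77) and highest on the 12 h array with the highest Madcam1 (5.38). Between Madcam1 and this sum Pearson's r was 0.884 and Spearman's rho 0.888 over the 12 arrays. Without the 2 arrays farthest from the median marker sum r was 0.789, within the 8 arrays of slide 1 it was 0.927, and slide 2 held too few arrays. This was the only such relation computed, and since it was chosen after Btla and Tespa1 had been seen among the genes most like Madcam1 on the same arrays, it is a description with no test. Of 6 markers of lymphoid stroma, 0 were called at any time.

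At the junctions, Cdh5 and Pecam1 differed. Cdh5 encodes VE-cadherin, which holds endothelial cells to each other, and it read -0.27, -0.35 and -0.39 in sham, 0.06, 0.01 and 0.15 at 3 h, 0.19, 0.26 and 0.20 by 12 h, and 2.26, 1.41 and 0.60 by 72 h. The groups stood in the order of time without overlap, and the 72 h arrays were widely spread (SD 0.83). The changes were 0.41 (SE 0.31, adjusted p = 0.375), 0.55 (adjusted p = 0.264) and 1.76 (95% interval 1.06 to 2.46, adjusted p = 0.00385). It was the 1 gene of the 9 called between 12 and 72 h, with a further 1.21 (adjusted p = 0.0253), where 4.33% of all genes were called higher. That later call was lost in 9 of 26 alternatives, including without 72 h array 1 (0.79, adjusted p = 0.0361, under 2-fold), without 72 h array 2 (1.21, adjusted p = 0.0671) and without any one of the 12 h arrays (1.20 to 1.23, adjusted p = 0.0558 to 0.0693). Against sham, the 72 h call held without array 1 (1.34, adjusted p = 0.00320) and was lost with the slide as a block (1.79, adjusted p = 0.149). Cyp7b1 (0.986), Bmper (0.984) and Bcl6b (0.974) were most like it.

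PECAM-1 sits at the same junctions and on platelets and leukocytes. Pecam1 read -1.17, -1.19 and -1.45 in sham, -1.62, -1.50 and -1.44 at 3 h, -0.33, -1.30 and -1.13 by 12 h, and -0.46, -0.88 and -1.13 by 72 h. The 72 h arrays were above the sham arrays by a narrow margin and the other groups overlapped with sham. Its changes were -0.25, 0.35 and 0.45 (SE 0.25, adjusted p = 0.500, 0.380 and 0.247), with a 95% interval at 72 h of -0.10 to 1.0. Between 3 and 72 h the difference was 0.70 (adjusted p = 0.0485) and under 2-fold. Its closest genes, Tubgcp5 (0.882), Prkd3 (0.878) and Vsig10l (0.871), were less alike than those of any other of the 9.

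Between 3 and 72 h, 3 of the 9 genes were called higher (Selplg by 1.33, Icam2 by 1.41 and Cdh5 by 1.35), where 6.19% of all genes were called higher. With the slide as a block all 3 calls were lost (adjusted p = 0.0905, 0.138 and 0.177), and without 72 h array 1 the difference of Cdh5 was 0.93 (adjusted p = 0.0111) and under 2-fold. In count, 6 of the 9 genes had 3 h arrays that did not overlap with sham, against 46.6% of all genes, 6 had so at 12 h, against 36.2%, and 8 at 72 h, against 37.5%.

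The rise of Cdh5 and Icam2 at 72 h stood beside other endothelial genes. Of 17 endothelial markers, 1 was called higher at 3 h (Nos3), 2 at 12 h (Ecscr and Nos3) and 7 at 72 h (Cd93, Ecscr, Sox18, Nos3, Egfl7, Tie1 and Eng), with 0 lower at any time and a median change of -0.35, -0.19 and 0.90. Cd93, a receptor of endothelium, changed by 1.87 at 72 h (adjusted p = 3.33e-04), Sox18, an endothelial transcription factor, by 1.40 (adjusted p = 0.00797) and Egfl7, a protein secreted by endothelium, by 1.37 (adjusted p = 0.00581). Kdr, Flt1, Plvap and Vwf were not called, at 0.25, 0.06, 0.67 and 0.02. The summed level of the 17 was 40.1 to 42.0 in sham, 36.5 to 42.5 at 3 h, 41.2 to 42.8 at 12 h, and 125.2, 83.8 and 60.2 on 72 h arrays 1, 2 and 3. That is also the order of Cdh5, Icam2, Sele, Selp and Pecam1 over these 3 arrays. Madcam1 and the brightest probe of Vcam1 ran in the reverse order, and Selplg and Icam1 followed neither order. The share of all genes that followed each order was not computed. Whether the endothelial content of the tissue has a part in the values of any of the 9 genes was not tested. None of 5 lymphatic endothelial markers was called at any time.

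**Figure D3:**
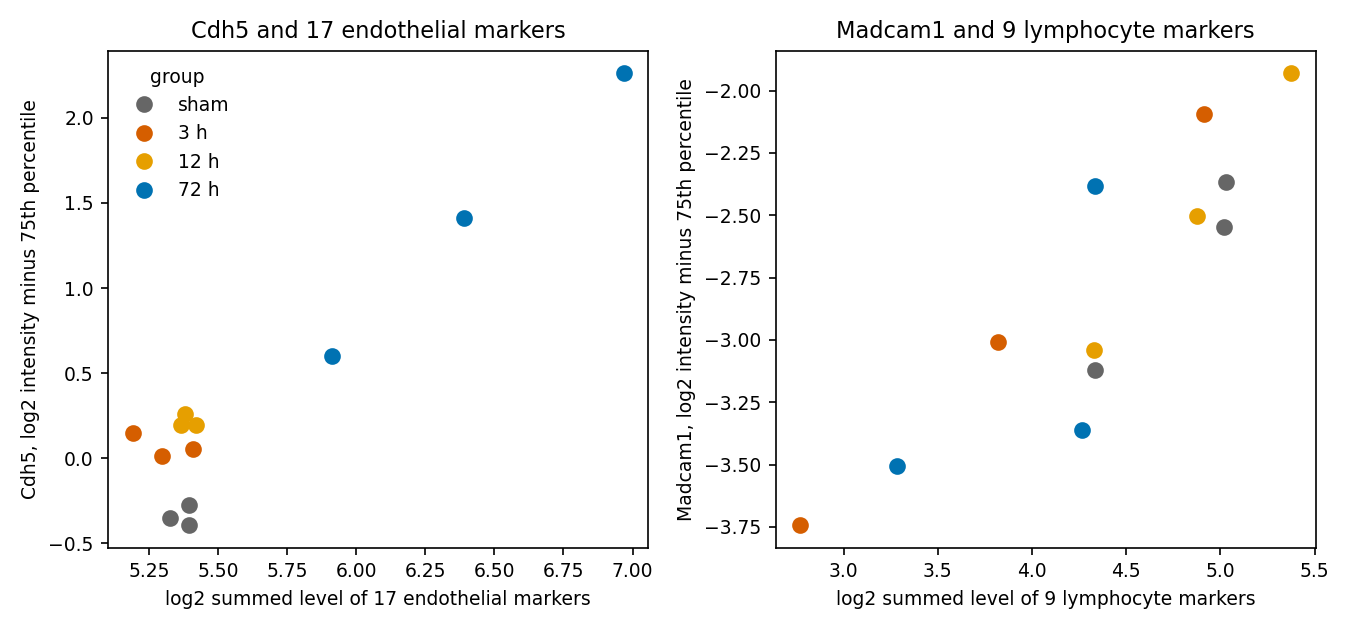
Cdh5 against the summed level of 17 endothelial markers (left) and Madcam1 against that of 9 lymphocyte markers (right), both axes on the log2 scale and 1 point per array, coloured by group. The 3 arrays at 72 h stand apart on the left, whereas all groups are mixed on the right, where r was 0.884 over 12 arrays.

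P-selectin is also carried by platelets, and some of the platelet marker genes were called higher. Of 9 platelet markers, 4 were called at 3 h (Ppbp, Gp9, Pf4 and Gp1ba), 2 at 12 h and 2 at 72 h (Ppbp and Pf4), of which Gp1ba was above background on 0 of 12 arrays. Pf4, a chemokine of platelet granules, rose by 1.91, 1.81 and 2.57 (adjusted p = 0.00124, 0.00119 and 2.27e-04). Ppbp was not well above background in sham and was at least 9.29-fold, 23.1-fold and 20.5-fold higher. Gp1bb and Gp6 were above background on every array and were not called against sham. The sum of the 9 was 4.58 to 5.29 in sham, 14.1 to 24.8 at 3 h, 11.6 to 21.1 at 12 h and 25.6 to 33.2 at 72 h, and the part of platelets in the Selp signal was not tested.

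Other genes that endothelium makes when activated moved early as well. Of 10 measured, 5 were called higher at 3 h (Csf3, Ptgs2, F3, Ackr1 and Procr), 3 at 12 h and 4 at 72 h, with medians of 0.97, 0.65 and 0.93. Ptgs2, the inducible cyclooxygenase, rose by 3.77, 4.96 and 4.0 (adjusted p = 1.26e-04, 1.83e-05 and 7.61e-05). F3, tissue factor, rose by 2.16 at 3 h (adjusted p = 3.39e-04), and Ackr1, the chemokine-binding receptor of venules, rose by 1.23 at 3 h (adjusted p = 6.63e-04) and 1.25 at 12 h (adjusted p = 4.22e-04). These genes are also made by other cells, and Angpt2, Thbd and Nr2f2 were not called at any time.

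On the leukocyte side of the selectins, 17 genes for ligands and for the enzymes that build their sugars were all measured. At the 3 times 2, 4 and 6 of them were called higher, with medians of 0.13, 0.17 and 0.39. Cd44, a hyaluronan receptor that also serves E-selectin, rose by 1.62, 1.86 and 1.25 (adjusted p = 7.62e-05, 2.24e-05 and 2.74e-04). Of the sialyltransferases, St3gal4 rose by 2.22 at 12 h and 2.68 at 72 h (adjusted p = 1.27e-04 and 5.67e-05) and St3gal6 by 1.73 and 1.09 (adjusted p = 2.60e-04 and 0.00391). Fut7, the fucosyltransferase that completes selectin ligands, was the 1 gene of the list called lower. It read -2.43, -2.90 and -1.92 in sham and -4.42, -4.24 and -3.85 at 3 h, a fall with no overlap (-1.75, SE 0.37, adjusted p = 0.00918), and was 0.19 and -0.04 away from sham at 12 and 72 h. Cd34 and Emcn, sialomucins of endothelium, were called at 72 h alone (1.14 and 1.09, adjusted p = 0.0263 and 0.0272).

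Among 16 genes of leukocyte integrins and the proteins that activate them, 2, 4 and 6 were higher at the 3 times and 0 were lower, with medians of -0.22, 0.34 and 0.44. Itgb2, the shared β2 chain that binds ICAM-1 and ICAM-2, changed by 0.59 at 3 h (adjusted p = 0.150), 2.57 at 12 h (adjusted p = 1.71e-04) and 2.17 at 72 h (adjusted p = 5.97e-04). Its partner Itgal rose by 1.90 at 12 h (adjusted p = 2.39e-04) and 1.43 at 72 h (adjusted p = 0.00153). Another partner, Itgam, was not called against sham at any time. Its mean level was 4.97 in sham and 4.82, 5.14 and 4.27 at 3, 12 and 72 h. The kinase Fgr of myeloid cells rose at all 3 times, by 1.69, 3.40 and 2.76 (adjusted p = 0.00115, 1.82e-05 and 7.06e-05). Fermt3, the integrin activator kindlin-3, was called at 72 h (1.25, adjusted p = 0.00837). The chains that bind VCAM-1 and MAdCAM-1 were not called against sham, Itga4 being at -0.37, 0.10 and 0.36 and Itgb7 at -0.89, 0.34 and 0.20, the first of which passed the p threshold (0.00724) but was under 2-fold. Itgb7 was called higher than at 3 h at both later times, by 1.23 at 12 h (adjusted p = 0.00401) and 1.1 at 72 h (adjusted p = 0.00157).

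Of 18 further junction and adhesion genes, 2, 2 and 3 were called higher and 1, 2 and 0 lower at the 3 times. Cldn5, the claudin of endothelial tight junctions, read 0.75, 0.64 and 0.38 in sham, -1.07, -1.10 and -1.09 at 3 h, -0.44, -0.77 and -0.38 by 12 h, and 0.79, 1.04 and 0.29 by 72 h. It fell by 1.68 at 3 h (adjusted p = 3.73e-04) and by 1.12 at 12 h (adjusted p = 0.00232), and the 72 h arrays overlapped with sham. Cd99l2, which takes part in the passage of leukocytes, was lower at 12 h (-1.07, adjusted p = 2.83e-04). Pvr, a nectin-like molecule, rose by 2.33 at 3 h (adjusted p = 1.78e-05) and 1.20 at 12 h (adjusted p = 4.19e-04), and Cd47 rose by 1.24, 1.84 and 1.29 (adjusted p = 7.17e-04, 5.82e-05 and 5.71e-04). Esam and Jam2, both of endothelial junctions, were called at 72 h (1.49 and 1.11, adjusted p = 0.00434 and 0.00499), on the same arrays as Cdh5.

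**Figure D4:**
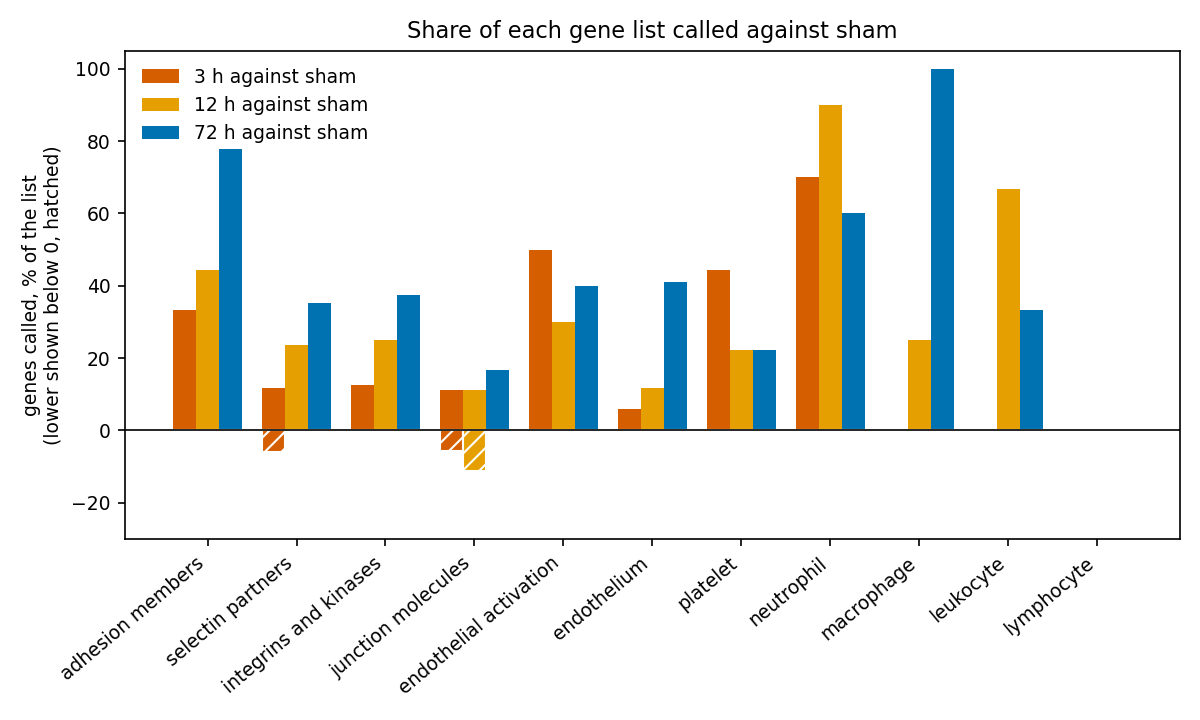
Share of each gene list called against sham (y axis, % of the measured genes, higher above 0 and lower below 0 with hatching) at 3, 12 and 72 h. The 9 adhesion genes had 3, 4 and 7 called higher, the 17 endothelial markers 1, 2 and 7, and the 9 lymphocyte markers 0 at all 3 times.

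Markers of the rest of the wall moved as follows. The 5 smooth muscle markers were called lower at 12 h (5 of 5) and 72 h (4 of 5), with sums of 489.4 to 515.8 in sham and 152.7 to 249.3 at 12 h. Of 6 mesothelial markers, 3 were lower at 3 and at 12 h and 2 higher at 72 h. Of 6 epithelial markers, 1 was lower at 72 h (Car1), where the sum was 336.1 to 532.8 against 906.9 to 1004.1 in sham. The part of these shifts in the values of the 9 genes was not tested.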

How the data were processed

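Cecum RNA of 12 mice was labelled with 1 dye and hybridised to 8x60K mouse expression arrays of Agilent (SurePrint G3, v2). What the authors deposited per array is the Feature Extraction output (version 11.5.1.1 per the file headers), whose background-corrected intensity per spot is linear and was not yet scaled. A second deposited file holds log2 values, 75th-percentile scaled in GeneSpring by the authors and row-centred (column medians -0.18 to 0.13), which had a Pearson r of 0.99997 with values recomputed here. Of 62976 spots, 3671 controls were left out. Spots flagged as outliers (53 to 152 per array) were dropped, spots of 1 probe were averaged, and log2 intensity minus the array's 75th percentile over probes was used. The gene names of the array were kept, and 23666 of 37074 were in the RefSeq table.

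The 4 group means were estimated on the 12 arrays by limma 3.58.1 (R 4.3.3) and p-values adjusted by Benjamini-Hochberg over 56605 probes. A gene stood as its probe with the highest mean. The fit was tested on simulated arrays. A probe below background on a whole group gave a lower bound of its fold. Files were read and motifs searched in Python 3.11.15. The methods' test for pairs was run as an alternative, as were other scalings, background corrections, filters, blocks, thresholds and each array left out. The methods speak of biological triplicates and the labels only number the samples, so p-values measure the spread between these samples. The members and lists (selectin partners, integrins, junction genes, endothelial activation, and markers of endothelium, lymphatic endothelium, platelets, neutrophils, macrophages, leukocytes, lymphocytes, lymphoid stroma, mesothelium, epithelium, smooth muscle and sex) were chosen with earlier results of these data known. Named genes are the members, up to 5 called genes per list with the largest change above background in both groups, genes called against their list, the 3 genes most like each member and the sex genes, and other listed genes named here were picked after their values were seen. Precision is limited by 3 arrays per group. Darc and Emr1, older names on the lists, are not on the array under those names. Values of some listed genes are not reported here.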

Additional observations from a re-analysis of the deposited data

Results flagged for a closer look

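At the brightest probe, the change from sham differed between times by more than 2-fold for 3 of the 9 genes. The adjusted p of each such difference was below 0.05. By the same thresholds, 3.46% of all genes were called at 12 h against 3 h. At 72 h the share was 7.52% against 12 h and 11.7% against 3 h. For Selp such a difference was found only at the dimmer probes. Selplg was 1.64 higher at 12 h than at 3 h and 1.33 higher at 72 h than at 3 h. Icam2 was 1.41 higher at 72 h than at 3 h. Cdh5 was 1.21 higher at 72 h than at 12 h and 1.35 higher at 72 h than at 3 h. Selp was lower at 72 h than at 3 h at its dimmer probes, by -1.08 and -1.05. All are log2 differences from limma. With the slide as a block, the calls of Selplg, Icam2 and Cdh5 at 72 h against the earlier times were lost. Groups of 3 arrays were too small for a check of single outlying arrays.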

How the results depend on the processing

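Adding the slide as a block left 3 calls at 72 h against sham (Sele, Selp and Selplg) in place of 7, and 0 in place of 1 at 72 h against 12 h and 0 in place of 3 at 72 h against 3 h, where standard errors were 1.81, 1.42 and 1.81 times as large in the median. Of all genes it called 3.11%, 3.3% and 3.11% in these comparisons, in place of 8.85%, 7.52% and 11.7%. Within slide 1 the counts at 12 h were 4 against sham and 1 against 3 h, against 9.49% and 2.26% of all genes. Slide 2 held 1 array of 12 h, so no count is given for 72 h against 12 h there. Fitting only the groups compared gave 0 at 72 h against 12 h and 1 at 72 h against 3 h, against 6.31% and 10.4% of all genes. With no fold change threshold these counts were 2 and 6, against 18.5% and 38.5% of all genes. The methods name a paired t-test for comparing 2 groups but give no test for the arrays. After adjustment this paired test called 0 of the 9 in each of the 6 comparisons. At an unadjusted p below 0.05 it passed 5, 5, 5, 2, 1 and 1. Of all genes, the adjusted paired test called 1 at 12 h against 3 h and 0 in every other comparison. Its 0 of 9 therefore does not set the members apart. Unadjusted, it passed 18.4%, 21.6% and 22.2% of all genes at 3, 12 and 72 h against sham. Between the later times it passed 5534 of 37019 genes at 12 h against 3 h. At 72 h it passed 18.1% against 12 h and 36.9% against 3 h. Leaving out 1 array gave 3 to 4 calls at 3 h, 4 to 4 at 12 h, 5 to 7 at 72 h, 1 to 1 at 12 h against 3 h, 0 to 1 at 72 h against 12 h, 3 to 5 at 72 h against 3 h, and 6 to 7 by the F-test. Of all genes these fits called 5.84% to 7.68%, 7.66% to 9.88% and 7.39% to 8.93% at 3, 12 and 72 h. In the other comparisons, in the same order, they called 2.37% to 3.48%, 5.7% to 8.33% and 9.42% to 12%. For the F-test no share of all genes was computed in these fits. Normexp correction called 838, 1327 and 1258 of all genes at 3, 12 and 72 h in place of 2732, 3360 and 3282, and quantile normalization moved the 72 h split from 1687 higher and 1595 lower to 1851 and 1098.

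Replicate numbers did not pair the arrays: deviations of same-numbered arrays correlated at -0.16 to 0.09 over 18 pairs, with 0 over 0.1. With the replicate number as a block, 3, 4 and 6 genes were called at 3, 12 and 72 h against sham, 1, 1 and 3 between the later times and 6 by the F-test, Icam2 at 72 h being lost (adjusted p = 0.0788).

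Of the values of single genes, 1284 kept their direction and call, 57 lost the call, 12 gained it and 24 changed sign, none of the last being called. Icam1 at 12 h against 3 h was 0.0036 under quantile normalization. Sele at 72 h against 12 h was 0.060 with the percentile over bright probes and 0.55 with the slide block and within slide 2, and at 72 h against 3 h it was 0.086 with the slide block. Selp at 72 h against 12 h was 0.28 with the slide block and within slide 2. With 1 array left out the ranges that crossed 0 were -0.37 to 0.23 for Icam1 at 12 h against 3 h, -0.61 to 0.44 for Sele, -0.35 to 0.082 for Selp and -0.092 to 0.39 for Pecam1 at 72 h against 12 h, and -0.70 to 0.13 at 3 h, -0.094 to 0.46 at 12 h and -0.53 to 0.29 at 72 h against 3 h for Madcam1. The cause was not tested.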
